A study of Homo sapiens with 6 samples.

Results

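The SLC25 family of mitochondrial carriers was followed in HK-2 cells, a human proximal tubular epithelial line, after exposure to substance P (SP). Members were taken as every gene whose symbol is SLC25A followed by a number, which gave 43 members among the 16250 genes listed. The rule itself used no measured value, though the members were chosen with earlier results of these data known. Both groups were HK-2 cells stably overexpressing the neurokinin-1 receptor (NK-1R, the G protein-coupled receptor of SP, encoded by TACR1) from a lentiviral pCDH-CMV vector. The control group of 3 libraries received PBS and the SP group of 3 libraries received 20 µM SP for 48 h. A group without receptor overexpression was not analysed here, so the values describe SP in receptor-overexpressing cells of an immortalized line. Nothing in the labels says that the libraries of a group came from separate cultures, so each p-value measures the spread between these libraries, which may be technical.

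SLC25 proteins carry metabolites, nucleotides, cofactors and ions across the inner mitochondrial membrane, which is otherwise closed to most charged molecules. Most members are built from 3 repeats of a pair of membrane helices and exchange a substrate on one side for a substrate on the other. They connect the cytosol to oxidative phosphorylation, the citric acid cycle, amino acid breakdown, and heme and iron-sulfur cluster assembly. Proximal tubular epithelial cells depend heavily on mitochondrial oxidation for solute reabsorption. Some members, among them the SCaMC carriers and the aspartate/glutamate carriers, have calcium-binding domains facing the intermembrane space.

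SP treatment went with a difference in 7 of the 39 SLC25 members that could be tested (17.9%), near the 20.6% of all genes tested that were called. SLC25A25, a calcium-regulated ATP-Mg/phosphate carrier, rose 1.68-fold, from 8.91 ± 0.965 to 15.0 ± 1.88 FPKM (mean ± SD, n = 3 libraries in each group, as throughout). SLC25A10, the dicarboxylate carrier, fell to 0.688 of its control level, from 37.7 ± 2.56 to 26.0 ± 0.425 FPKM. SLC25A45 and SLC25A22 were also higher, and SLC25A13, SLC25A23 and SLC25A37 were also lower. FPKM counts fragments per kilobase of transcript, scaled to the mapped fragments of the library, so levels can be set side by side between genes. Differences were tested with limma on log2(FPKM + 1) over all 12127 genes that reached 0.5 FPKM in 3 or more libraries. A gene was called at a Benjamini-Hochberg adjusted p under 0.05. Libraries were not paired by replicate number in this test. With such pairing SLC25A22 and SLC25A37 were not called, while SLC25A1 and SLC25A32 were.

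TACR1 was read first because the cells were made to overexpress it. Its FPKM was 15.7, 25.8 and 33.0 in the control libraries and 78.5, 123 and 141 in the SP libraries. The groups did not overlap, and TACR1 rose by 2.17 on the log2 scale (adjusted p = 0.00207). Receptor transcript from the vector and from the cells' own gene cannot be told apart in these values. Of 17 proximal tubule markers, 14 were listed and 3 had a mean of at least 1 FPKM over the libraries, GGT1 and SLC4A4 among them. CUBN, SLC34A1, SLC5A2, HNF4A and ANPEP were near 0, so the cells carried few of the defining transcripts of the tubule they came from. Summed over the listed markers, the level was 102 to 127 FPKM in control and 98.9 to 102 FPKM in SP libraries. Epithelial markers were present at 5 of 6, and the endothelial and leukocyte markers summed to 110 to 114 FPKM in control and 107 to 114 FPKM in SP libraries, nearly all of it CD68. PTPRC was listed at 0 to 0.01 FPKM, while PECAM1 was 0.02 to 0.05 FPKM in control and 0.22 to 0.61 FPKM in SP libraries. Among the listed markers AQP1 rose from 0.333 ± 0.0709 to 0.710 ± 0.139 FPKM (adjusted p = 0.0412). It lay below 0.5 FPKM in every control library and was tested only because its SP libraries passed the filter. The fibroblast marker COL1A1 fell from 4.60 ± 0.190 to 2.64 ± 0.478 FPKM (adjusted p = 0.00727). The part of these marker differences in the SLC25 values was not tested. Libraries correlated with 0.990 to 0.996 within groups and 0.977 to 0.987 between groups, across genes.

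SLC25 members spanned a wide range of levels. Averaged over the 6 libraries, 4 members were above 100 FPKM, 20 lay between 10 and 100, 13 between 1 and 10, and 6 at or below 1. The adenine nucleotide translocases SLC25A5 and SLC25A6 and the phosphate carrier SLC25A3 together gave 63.0% of the family's mean FPKM. Summed over all members, the family reached 1889, 1820 and 1763 FPKM in control libraries and 1677, 1751 and 1798 FPKM in SP libraries. These sums overlapped, and as a share of all listed FPKM the family was 0.255% ± 0.00691 in control and 0.254% ± 0.00876 in SP libraries.

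**Figure D1:**
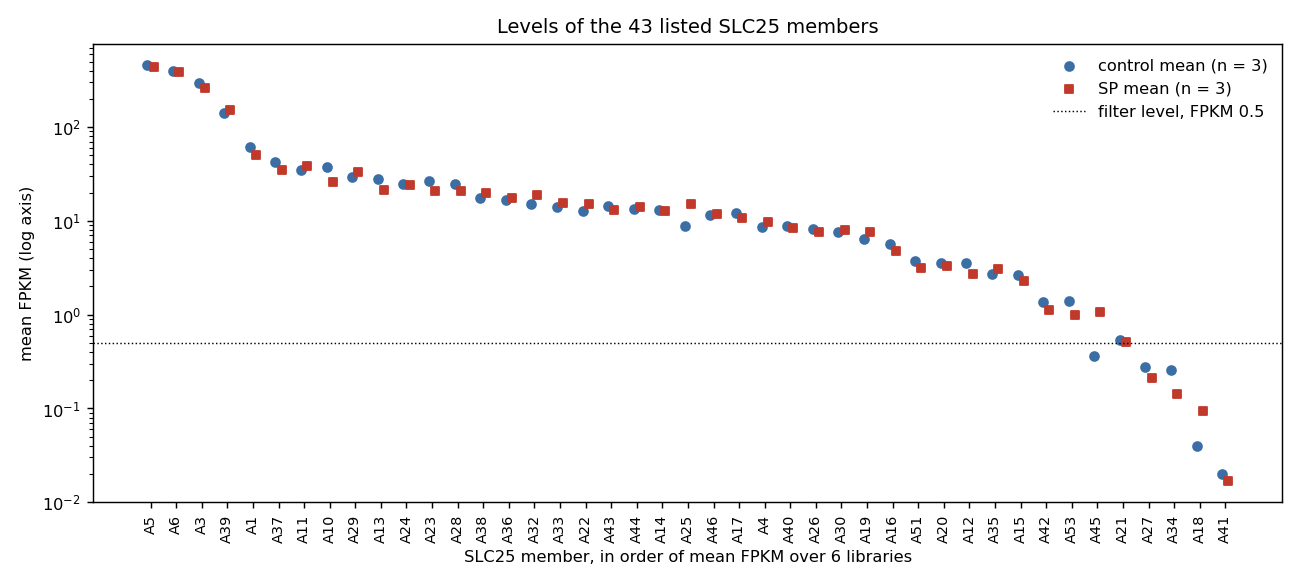
Mean FPKM (log axis) of the 43 listed SLC25 members in the 3 control libraries (circles) and the 3 SP libraries (squares), ordered by the mean over all 6 and labelled without the SLC25 prefix. SLC25A5, SLC25A6, SLC25A3 and SLC25A39 lie above 100 FPKM, and the dotted line marks the filter level of 0.5 FPKM.

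Of the 43 members, 39 passed the filter on low values and 37 were at or above 0.5 FPKM in all 6 libraries. SLC25A18, SLC25A27, SLC25A34 and SLC25A41 did not pass, and SLC25A41 was listed at 0 in 4 libraries. SLC25A45 passed only through the SP libraries. Of the 39 tested, 3 were higher in SP (7.69%) and 4 were lower (10.3%). Across all 12127 genes tested, 20.6% were called, 8.57% higher and 12% lower. On the log2(FPKM + 1) scale no member called also differed by 1 or more, against 1.59% of all genes, although on log2(FPKM + 0.1) SLC25A45 did (1.33, adjusted p = 0.00623). At an unadjusted p under 0.05, 15 members passed (38.5%), against 36.6% of all genes. The control and SP libraries did not overlap for 16 of the 39 tested members (41.0%), 5 with SP above and 11 with SP below, against 42% of all genes. All 7 called members were among the 16. The median log2 fold change of the tested members was -0.04 and that of all tested genes was -0.05.

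**Figure D2:**
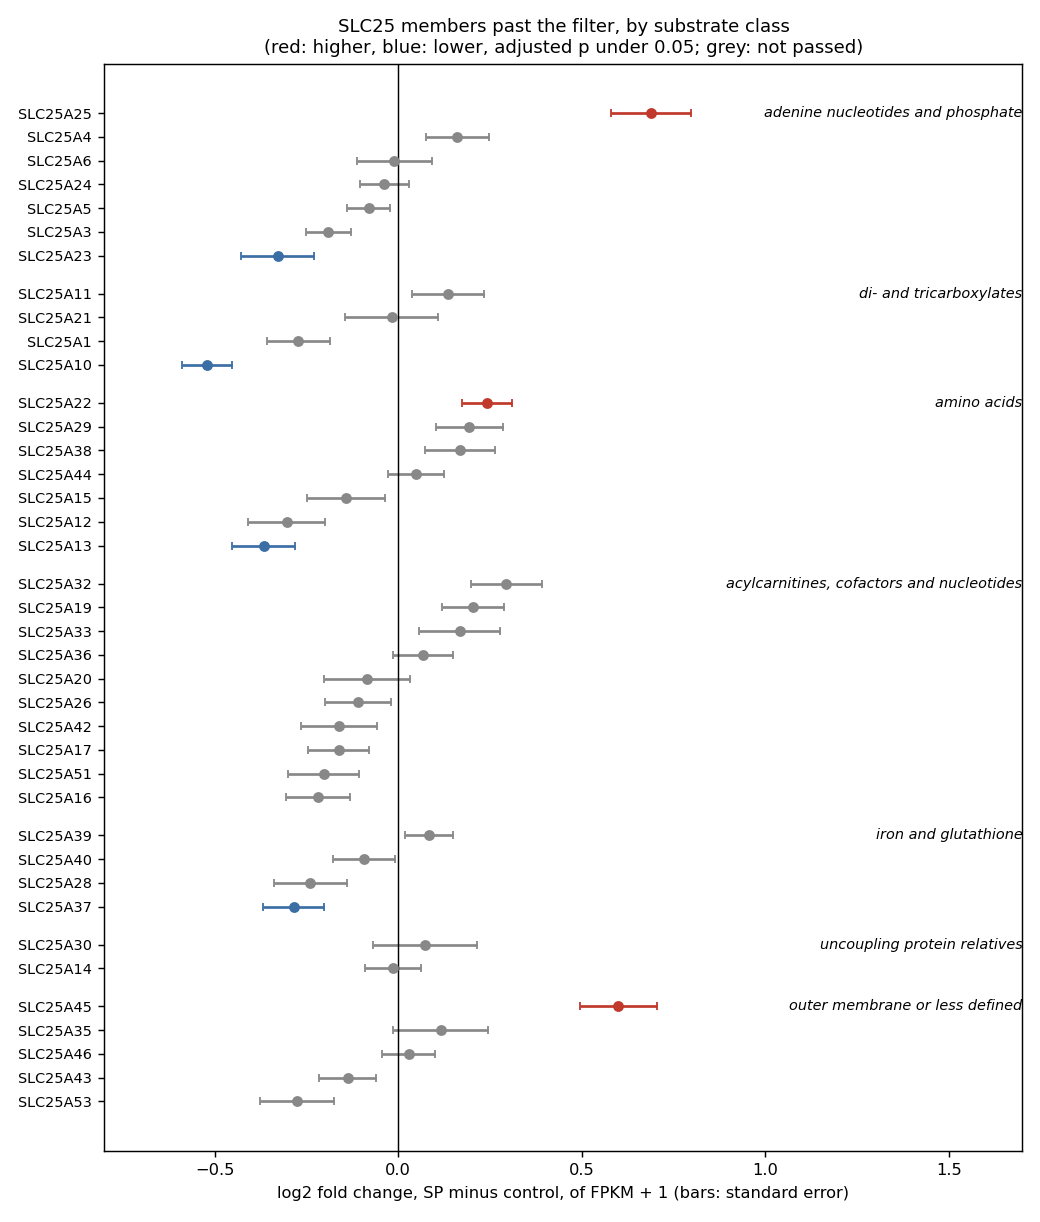
Log2 fold change (SP minus control, on log2(FPKM + 1)) with its standard error for each tested SLC25 member, grouped by the substrate class. The 3 members called higher and 4 called lower are red and blue, and the remaining 32 members lie between -0.30 and 0.29.

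Before the members are taken by role, the sequences around the annotated starts of SLC25A25 are shown, since it had the smallest adjusted p of the members called higher. The RefSeq windows for build GRCh38.p14 run from 250 bases before to 50 bases after each annotated start and are read 5′ to 3′ on the plus strand. SLC25A25 has 3 annotated starts. Both strands were searched for CRE (TGACGTCA, the cyclic AMP response element bound by CREB and ATF factors), AP-1 (TGANTCA) and AARE (TGATGNAA, an amino acid response element), and matches to these are in capitals. Expression per gene does not say which start was in use.
SLC25A25, chr9:128067982-128068281: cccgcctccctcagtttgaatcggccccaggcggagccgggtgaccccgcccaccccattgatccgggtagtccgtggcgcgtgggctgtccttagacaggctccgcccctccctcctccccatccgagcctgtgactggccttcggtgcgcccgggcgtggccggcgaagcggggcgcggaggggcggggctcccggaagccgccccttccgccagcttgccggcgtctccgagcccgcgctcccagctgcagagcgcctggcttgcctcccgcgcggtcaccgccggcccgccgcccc
SLC25A25, chr9:128091205-128091504: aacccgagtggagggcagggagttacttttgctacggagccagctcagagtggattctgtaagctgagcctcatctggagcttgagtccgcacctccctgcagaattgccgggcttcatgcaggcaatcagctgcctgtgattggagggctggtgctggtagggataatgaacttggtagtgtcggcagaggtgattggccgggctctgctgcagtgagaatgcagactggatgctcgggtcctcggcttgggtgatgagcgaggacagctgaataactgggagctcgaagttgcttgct
SLC25A25, chr9:128098257-128098556: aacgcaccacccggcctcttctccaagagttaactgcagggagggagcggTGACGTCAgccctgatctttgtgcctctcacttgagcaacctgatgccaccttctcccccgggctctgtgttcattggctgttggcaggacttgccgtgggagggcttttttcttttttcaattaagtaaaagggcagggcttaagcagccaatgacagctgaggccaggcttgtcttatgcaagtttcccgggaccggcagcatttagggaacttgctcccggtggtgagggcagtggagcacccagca
The capitals in the third SLC25A25 window mark a CRE whose first base lies 200 bases before that start. None of the other windows printed holds these letters for any of the motifs. CRE was found in 1.85% of all 35116 RefSeq windows and in 3 of the 45 windows of the 36 members that had one (SLC25A25, SLC25A33 and SLC25A36). AP-1 was found in 7.71% of all windows and in 1 member, SLC25A22, and AARE in 3.62% of all windows and in 1 member, SLC25A11. A match describes the letters and is not evidence that a factor binds.

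The carriers of adenine nucleotides and phosphate, which supply ADP and phosphate to ATP synthase and return ATP, had 8 listed and 7 tested members. Of these, 1 was higher, 1 was lower and 5 were not called, with a median log2 fold change of -0.04. SLC25A25 (SCaMC-2), at 9:128068201-128109245 on the plus strand of GRCh38, exchanges ATP-Mg for phosphate under calcium control. Its FPKM was 8.88, 9.89 and 7.96 in control libraries and 12.9, 16.5 and 15.5 in SP libraries. Every SP library lay above every control library, and the gene rose by 0.69 on the log2 scale (SE 0.11, adjusted p = 0.00517). NAIF1, which overlaps it on the opposite strand, stood at 3.39 FPKM in control and 3.37 in SP libraries (adjusted p = 0.983), and how counting treated strand is not stated by the labels or methods. SLC25A23 (SCaMC-3), at 19:6436079-6465203 on the minus strand, belongs to the same calcium-regulated group. Its FPKM was 27.1, 27.2 and 25.5 in control libraries and 24.3, 20.6 and 18.4 in SP libraries. The groups did not overlap, and the first SP library lay closest to the controls. SLC25A23 fell by 0.33 on the log2 scale (SE 0.10, adjusted p = 0.0482). This call was lost when any single library other than the first SP library was left out, with adjusted p = 0.0936, 0.137 and 0.0609 without control 1, 2 and 3 and 0.149 and 0.123 without SP 2 and SP 3. It was also lost with no filter and under each other scaling of the libraries. CRB3 overlaps SLC25A23 on the opposite strand and had 15.4 and 17.8 FPKM (adjusted p = 0.194).

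Within the calcium-regulated ATP-Mg carriers the summed level was almost the same in both groups while its makeup was not. The sum of SLC25A23, SLC25A24 and SLC25A25 was 60.8, 60.5 and 59.1 FPKM in control and 62.1, 60.7 and 57.3 FPKM in SP libraries. SLC25A25 made up 14.6, 16.4 and 13.5% of that sum in control and 20.8, 27.2 and 27.1% in SP libraries. SLC25A23 made up 44.2% ± 1.03 in control and 35.1% ± 3.68 in SP libraries, and SLC25A24 (SCaMC-1) 41.0% ± 2.44 and 39.9% ± 0.961. The SLC25A25 and SLC25A23 shares did not overlap between groups, and those of SLC25A24 did. These shares were chosen after the members' values were seen and are a description with no test. SLC25A24, also named for this reason, differed by -0.04 on the log2 scale (adjusted p = 0.711) and has 2 named pseudogene copies.

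**Figure D3:**
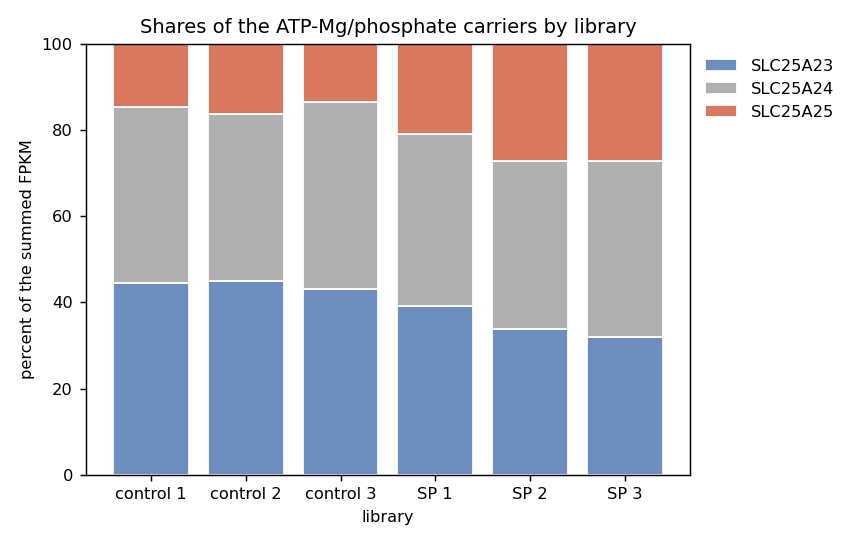
Share of the summed FPKM of the 3 calcium-regulated ATP-Mg carriers held by SLC25A23, SLC25A24 and SLC25A25 in each of the 6 libraries, as stacked bars in percent. The SLC25A25 share is 13.5 to 16.4% in the control libraries and 20.8 to 27.2% in the SP libraries.

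The most abundant members of this class did not pass the test. SLC25A5 (ANT2), which swaps cytosolic ADP for matrix ATP, had 457, 470 and 461 FPKM in control and 422, 441 and 450 FPKM in SP libraries. Its SP libraries all lay below its control libraries, with a log2 fold change of -0.08 (SE 0.06, adjusted p = 0.359). SLC25A6 (ANT3) had 438, 382 and 363 FPKM in control and 347, 395 and 434 FPKM in SP libraries, so the groups overlapped (log2 fold change -0.01, adjusted p = 0.950). The sign of both turned under another scaling. SLC25A3, which imports the phosphate used by ATP synthase, had 313, 294 and 288 FPKM in control and 266, 263 and 254 FPKM in SP libraries. Its SP libraries all lay below its control libraries (log2 fold change -0.19, SE 0.06, adjusted p = 0.0575). It passed without control 3 (adjusted p = 0.0485) and, just under the threshold, with quantile normalization (0.04996). SLC25A5, SLC25A6 and SLC25A3 have 9, 6 and 2 pseudogene copies named in the annotation, so reads may be shared and their levels are uncertain.

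The carriers of di- and tricarboxylates exchange citric acid cycle intermediates with the cytosol. None of the 4 was higher, 1 was lower, and their median log2 fold change was -0.15. SLC25A10, at 17:81712236-81721016 on the plus strand, exchanges malate and succinate for phosphate. Its FPKM was 35.1, 40.2 and 37.9 in control libraries and 25.9, 25.6 and 26.4 in SP libraries. The SP libraries lay close together and well below the control libraries. SLC25A10 fell by 0.52 on the log2 scale (SE 0.07, adjusted p = 0.00245), the smallest adjusted p in the family. The annotation also places AC139530.2 on the same strand across SLC25A10, so reads there may be shared. SLC25A1, the citrate carrier that delivers acetyl units for lipid synthesis, had 66.4, 60.4 and 58.6 FPKM in control and 55.5, 52.0 and 45.7 FPKM in SP libraries. The groups did not overlap but the call was missed (log2 fold change -0.27, SE 0.09, adjusted p = 0.0555). It was made with the replicate number as a block (adjusted p = 0.0241) and without SP 1 (0.0449). SLC25A1 has 5 named pseudogene copies.

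Of 8 listed amino acid carriers, 7 were tested, with 1 higher, 1 lower and a median log2 fold change of 0.05. SLC25A22 (GC1), at 11:790475-798333 on the minus strand, brings glutamate into the matrix together with a proton. Its FPKM was 12.9, 12.5 and 12.5 in control and 15.1, 14.6 and 15.8 in SP libraries. The groups did not overlap, and SLC25A22 rose by 0.24 on the log2 scale (SE 0.07, adjusted p = 0.0393). Leaving out any 1 library ended this call (adjusted p = 0.0531 to 0.127), as did the replicate block (adjusted p = 0.0530). PANO1, on the opposite strand within the SLC25A22 locus, had mean levels of 0.157 and 0.267 FPKM and was not tested. SLC25A13 (citrin), at 7:96120220-96322147 on the minus strand, is the calcium-regulated aspartate/glutamate carrier of the malate-aspartate shuttle. Its FPKM was 25.6, 26.9 and 31.2 in control and 22.2, 20.2 and 21.7 in SP libraries. All SP libraries were below all control libraries, and SLC25A13 fell by 0.37 on the log2 scale (SE 0.09, adjusted p = 0.0213). The call was lost without control 2 (adjusted p = 0.0573), SP 2 (0.0946) or SP 3 (0.0506), and when the libraries were scaled to equal totals (0.107).

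SLC25A12 (aralar), the other aspartate/glutamate carrier and chosen here after its values were seen, had 3.46, 3.37 and 3.97 FPKM in control and 2.92, 2.31 and 2.97 FPKM in SP libraries. These did not overlap either, but the test was not passed (log2 fold change -0.30, adjusted p = 0.0720). HAT1 and METAP1D overlap SLC25A12 on the opposite strand. From control to SP libraries HAT1 went from 62.45 to 55.50 FPKM (adjusted p = 0.128) and METAP1D from 1.57 to 1.10 FPKM (0.0804). Whether reads of these genes entered the SLC25A12 values was not tested. SLC25A13 gave 88.6% ± 0.410 of the summed level of both carriers in control and 88.7% ± 0.927 in SP libraries. The sum was 29.0, 30.2 and 35.2 FPKM in control and 25.1, 22.5 and 24.7 FPKM in SP libraries, with no overlap. It is mostly SLC25A13, already called lower, and is a description with no test.

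Iron and glutathione carriers serve heme and iron-sulfur cluster assembly and matrix redox balance. Of the 4, 1 was lower and none higher, with a median log2 fold change of -0.17. SLC25A37 (mitoferrin-1), at 8:23528805-23575463 on the plus strand, imports iron. Its FPKM was 39.3, 42.1 and 46.9 in control and 36.9, 35.3 and 32.5 in SP libraries. The groups did not overlap, and SLC25A37 fell by 0.29 on the log2 scale (SE 0.08, adjusted p = 0.0431). The call held in 3 of 14 alternative analyses. It was lost without control 2 (adjusted p = 0.108), control 3 (0.0889), SP 1 (0.0549), SP 2 (0.124) or SP 3 (0.121), with the replicate block (0.0634) and under each other scaling.

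SLC25A28 (mitoferrin-2), named after its values were seen, overlapped between groups, at 28.4, 25.0 and 21.4 FPKM in control and 20.4, 20.2 and 22.0 FPKM in SP libraries (log2 fold change -0.24, adjusted p = 0.124). The sum of both mitoferrins was 67.7, 67.1 and 68.4 FPKM in control and 57.3, 55.5 and 54.5 FPKM in SP libraries. The sums did not overlap between the groups, but SLC25A37, already called lower, made up 63.1% of them in control and 62.5% in SP libraries. They were formed after the values were seen and are a description with no test. SLC25A39, the glutathione carrier and the fourth most abundant member, had 147, 148 and 133 FPKM in control and 145, 155 and 153 FPKM in SP libraries. It has 2 named pseudogene copies, and its groups overlapped (log2 fold change 0.08, adjusted p = 0.387).

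**Figure D4:**
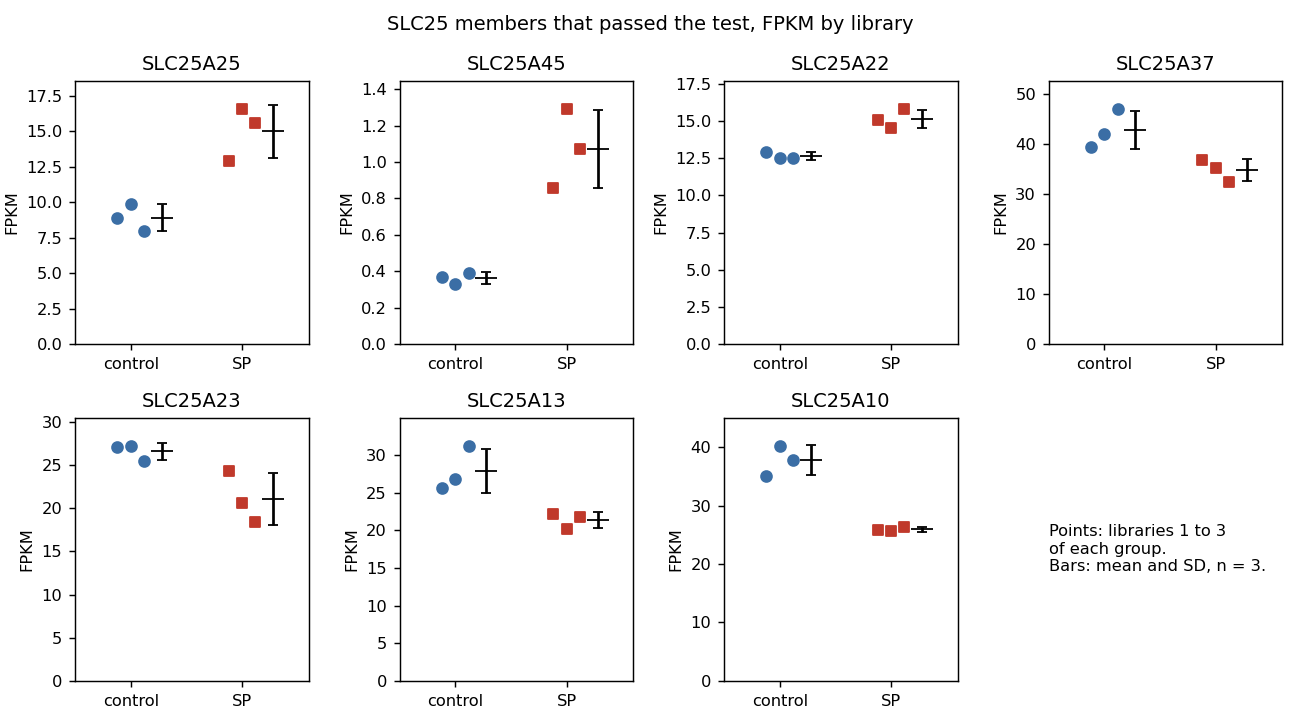
FPKM in each control and SP library for the 7 SLC25 members called, 1 panel each with its own axis from 0, with the group mean and SD (n = 3) beside the points. SLC25A25, SLC25A45 and SLC25A22 lie higher in all SP libraries, and SLC25A10, SLC25A13, SLC25A23 and SLC25A37 lie lower.

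None of the 10 carriers of acylcarnitines, cofactors and nucleotides was called, with log2 fold changes from -0.22 to 0.29. The member with the smallest p was SLC25A32, the carrier of folate and flavin. Its FPKM was 14.5, 15.4 and 15.6 in control and 16.4, 19.2 and 21.3 in SP libraries. The SP libraries lay above the control libraries and were more spread (log2 fold change 0.29, SE 0.10, adjusted p = 0.0624). It passed with the replicate block (adjusted p = 0.0384), with median-ratio scaling (0.0409), with quantile normalization (0.0486) and without SP 1 (0.0229). DCAF13 overlaps SLC25A32 on the opposite strand and AC012213.5 on the same strand, so reads there may be shared. Neither of the tested uncoupling protein relatives was called, and the one with the smaller p, SLC25A30 (KMCP1), had 6.86, 6.44 and 9.35 FPKM in control and 8.04, 6.84 and 8.94 FPKM in SP libraries, which overlapped (log2 fold change 0.07, adjusted p = 0.738).

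Among the 5 tested of 6 members at the outer membrane or with substrates not stated here, only SLC25A45 was called. SLC25A45, at 11:65375192-65383701 on the minus strand, was low throughout, at 0.37, 0.33 and 0.39 FPKM in control and 0.86, 1.29 and 1.07 FPKM in SP libraries. Every SP library was above every control library, the means of 0.363 ± 0.0306 and 1.07 ± 0.215 FPKM differed by 2.95-fold, and SLC25A45 rose by 0.60 on the log2(FPKM + 1) scale (SE 0.10, adjusted p = 0.00723). That scale understates the change of a gene at this level, and on log2(FPKM + 0.1) the difference was 1.33. SLC25A45 was tested only because its SP libraries passed the filter, and with any 1 of them left out, or with a filter at 1 FPKM, it was not tested.

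The calls of SLC25A10 and SLC25A25 held in all 14 alternative analyses, and those of SLC25A13, SLC25A22, SLC25A23 and SLC25A37 were lost in at least 1. For SLC25A10 the adjusted p ranged from 0.00226 to 0.0176 over 14 alternatives and for SLC25A25 from 0.0039 to 0.0283. For SLC25A45 it ranged from 0.00526 to 0.0317 over 10 alternatives, all of which kept the 3 SP libraries that admitted it to the test, so its call was not checked against leaving out any of them. Of all genes called, 41.6% were higher, a share that became 58.2% when libraries were scaled to equal totals, 58.5% with median-ratio scaling and 47.6% with quantile normalization. Over the same scalings, members called higher and lower numbered 3 and 1, 4 and 2, and 4 and 3.

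**Figure D5:**
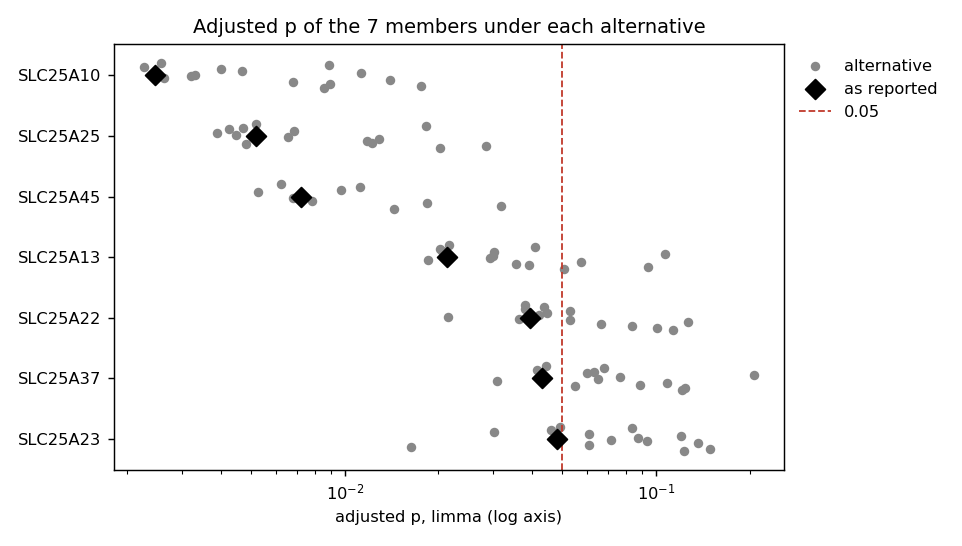
Adjusted p (log axis, limma with Benjamini-Hochberg adjustment) of the 7 SLC25 members called, in the analysis reported (diamonds) and in each alternative (grey points), with a dashed line at 0.05. SLC25A10 and SLC25A25 stay on the called side in all 14, SLC25A23 and SLC25A37 cross the line in most, and SLC25A45 has 10 points because it was not tested without any 1 SP library or with the filter at 1 FPKM.

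Genes that work with the carriers were read from the same test as lists of counts. Of 13 proteins that import carriers into the inner membrane, none was higher and 3 were lower (23.1%, against 12% of all genes lower, median log2 fold change -0.11). They were TOMM22, a receptor of the outer membrane translocase (log2 fold change -0.42, adjusted p = 0.00799), and TIMM13 (-0.37, 0.0125) and TIMM8B (-0.51, 0.0178), small chaperones of the intermembrane space. The other 10 were not called, TIMM9, TIMM10, TIMM22, TOMM70, TOMM20 and TOMM40 among them. Of 21 other mitochondrial metabolite and ion transporters, 1 was higher and 5 were lower (4.76% and 23.8%, against 8.57% and 12% of all genes, median -0.10). MCU, the pore of the mitochondrial calcium uniporter, had 37.4, 40.3 and 42.9 FPKM in control and 29.8, 29.1 and 33.9 FPKM in SP libraries. These did not overlap, and MCU fell by 0.37 on the log2 scale (adjusted p = 0.0174). SFXN4 (-0.45, adjusted p = 0.0198) and the channel VDAC3 (-0.23, 0.0273) were lower as well. Of 5 genes outside the symbol rule but in the same protein family, 3 were tested. None was higher and 1 was lower (33.3%, against 12% of all genes). This was MTCH2, an outer membrane member, with 44.3, 42.0 and 39.2 FPKM in control and 32.5, 32.6 and 31.8 FPKM in SP libraries (log2 fold change -0.36, adjusted p = 0.0083). MTCH1 (0.15, adjusted p = 0.132) and UCP2 (-0.34, 0.0611) were not called and differed in opposite directions.

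Among the enzymes that make or use carrier substrates, 33 of 34 were tested, with 5 higher (15.2%), 4 lower (12.1%) and a median log2 fold change of -0.08, against 8.57% and 12% of all genes. PC, the pyruvate carboxylase that refills oxaloacetate, had 1.98, 2.03 and 2.60 FPKM in control and 3.61, 4.03 and 5.10 FPKM in SP libraries. All SP libraries were above all control libraries, and PC rose by 0.71 on the log2 scale (adjusted p = 0.00799). GPD2, of the glycerol phosphate shuttle, rose by 0.55 (adjusted p = 0.0117). NNT, the transhydrogenase that makes matrix NADPH (-0.40, adjusted p = 0.0124), and NFS1, the desulfurase of iron-sulfur cluster assembly (-0.31, 0.0164), were lower. Of 16 regulators of mitochondrial gene expression, 2 were higher (12.5%, against 8.57% of all genes) and none lower (median 0.06), PPARD by 0.41 (adjusted p = 0.0187) and PPARA by 0.46 (adjusted p = 0.0344). Over these lists together 21 genes were called, and leaving out control 2, SP 2 or SP 3 left 5, 4 or 11. Of the called genes named from these lists, MTCH2, TOMM22, PC and GPD2 were called in all 14 alternatives, and the others were lost in at least 2.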

How the data were processed

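Total RNA from the receptor-overexpressing HK-2 cells was read as paired-end reads on a DNBSEQ platform, in 3 control and 3 SP libraries grouped by GEO's labels. The authors mapped the reads with HISAT to GRCh38.p13, estimated gene levels with RSEM and deposited them as FPKM, rounded to 2 decimals, for 16250 genes in each library. HISAT2 and Bowtie2 are listed as tools, and GRCh38.p13 and hg38 as builds, in the submitters' processing notes. How genes were chosen for the table and whether strand was used are not given in the sources used here. These units keep no read total, so depth is unknown and no counting interval is given. FPKM is also relative to each library's total, so abundant genes that change can move all others.

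The authors tested counts with DESeq2. FPKM is not a count, so here genes reaching 0.5 FPKM in 3 or more libraries were passed as log2(FPKM + 1) to limma 3.58.1 (R 4.3.3), with a variance trend and Benjamini-Hochberg adjustment over the 12127 genes. The procedure was tested on simulated independent libraries with differences of 0.5 and 1 on the log2 scale planted in 100 genes each. All of these were genes with a mean log2(FPKM + 1) above 2, so genes as low as SLC25A45 were not covered. The procedure recovered 73% and 100% of the planted differences, with 5 false calls. Smaller differences, such as those of SLC25A13, SLC25A22, SLC25A23 and SLC25A37, and paired libraries were not simulated. Alternatives changed the pseudocount (0.1), the filter (none, or 1 FPKM), the trend, the scaling, the replicate block and the libraries used. Same-numbered libraries deviated together from their group means (correlations 0.165, 0.223 and 0.170). Other numbers were at most -0.0363, but deviations within a group sum to 0, so positive same-number values push these below 0. The replicate numbers may therefore pair them, but the main fit did not pair libraries, and only the replicate block did. That pairing rests on these correlations, since no label says what a number stands for.

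Per-library values are given for every member called, the 5 most abundant members and the member with the smallest p in each class with no call. From lists of partner genes, up to 4 called genes with the smallest p are named. Some items that this rule or the marker lists would name are not reported here. The members and lists were chosen with earlier results of these data known. Gene positions come from GENCODE 29 on GRCh38, and all 43 members matched. Of these, 12 overlap a protein-coding gene on the opposite strand and 13 have named pseudogene copies. Promoter windows come from RefSeq on GRCh38.p14.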

Additional observations from a re-analysis of the deposited data

How the results depend on the processing

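Members called lower numbered 4, and 2 with no filter, without the trend or with median-ratio scaling, 1 with equal totals or at an adjusted p under 0.01, 0 with a 2-fold minimum, and 1 to 4 with 1 library left out. Members called higher numbered 3, and 0 with a 2-fold minimum and 1 to 2 with 1 library left out. Without SP 2 or SP 3 each direction held 1 member. Over all genes, 1457 were lower, and 751 with equal totals, 912 with median-ratio scaling, 37 with a 2-fold minimum, 371 at an adjusted p under 0.01 and 426 to 1413 with 1 library left out. The 1039 higher genes became 156, 441 and 474 to 1117 under the last 3 of these. The partner lists held 21 calls, and 0, 3 and 4 to 19 under the same 3. With 1 library left out, the fewest calls over all genes and over the partner lists came without SP 2. The 2-fold minimum was taken on log2(FPKM + 1), and SLC25A45 passed it on log2(FPKM + 0.1). The alternatives for the partner lists and their single genes were chosen after seeing the data.

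With the replicate block 3 members were higher and 4 lower, 1184 and 1589 genes over the table, and 24 in the partner lists. SLC25A22 and SLC25A37 lost their calls, SLC25A1 and SLC25A32 gained one, and the other 5 calls remained. The difference of SLC25A5 turned from -0.08 to 0.0163 with quantile normalization. That of SLC25A6 turned from -0.01 to 0.0521 with equal totals, 0.0419 with median-ratio scaling and 0.0632 with quantile normalization, and ran from -0.0877 to 0.0747 with 1 library left out. That of SLC25A30 ran from -0.0196 to 0.219 with 1 library left out. None of these 3 was called in any alternative. SLC25A3 was called only with quantile normalization and without control 3. The cause was not tested for any of these changes. Libraries in groups of 3 and values rounded to 2 decimals limit what can be read from members below 1 FPKM.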
